A study of Mus musculus with 24 samples.

Results

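Transcripts were compared between 2 h of LPS and 2 h of R848 in RAW264.7, a macrophage-like line derived from a mouse tumour. The members are the 2 arrays labelled LPS at 2 h and the 2 labelled R848 at 2 h, 4 of the 24 arrays of the series. LPS was the lipopolysaccharide of Salmonella minnesota R595 at 100 ng/mL, and R848 (resiquimod), an imidazoquinoline, was given at 1 μM. Beside them stand 2 arrays of cells left untreated and 2 of cells given 1 μM P3C (Pam3CSK4, a synthetic lipopeptide ligand of TLR2), both at 2 h, and the LPS and R848 arrays at 1 and 4 h. All groups are of the 1 cell line with no genetic change named in the labels, and the methods describe the 2 arrays of a group (A and B) as duplicate biological samples. Each ligand was used at 1 dose, so a difference between ligands and a difference in the strength of the doses cannot be told apart.

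LPS is sensed by TLR4 with its co-receptors MD-2 (Ly96) and CD14. TLR4 signals from the cell surface through the adapters TIRAP and MyD88, and from endosomes through TRAM (Ticam2) and TRIF (Ticam1). The MyD88 arm drives NF-κB and MAP kinases and with them the cytokine genes, while the TRIF arm activates TBK1 and IRF3, which switch on the gene of interferon-β. Secreted interferon-β then binds its receptor and raises the antiviral interferon-stimulated genes. R848 is sensed in endosomes by TLR7, which is delivered there by UNC93B1 and signals through MyD88 without TRIF.

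Values are log2 signals after quantile normalization over all 24 arrays, differences are LPS minus R848 on that log2 scale with the SE of the fit (n = 2 arrays per group), and adjusted p-values are those of limma with Benjamini-Hochberg adjustment over 8622 tested genes. On the 4 arrays compared, 12348 to 13917 probes passed detection (p under 0.01), the most on LPS replicate A. The A and B arrays differed by a median of 0.16 (log2) with LPS and 0.18 with R848 over the genes tested. Both B arrays lay on 1 slide and the A arrays on different slides, so the B difference is the one value within a slide. All 103 called genes had the same sign in it, but they were called on a mean that includes it, so this is no separate check. No background was subtracted, which lowers the fold of dim genes. When each array was instead scaled to the same median over all probes (median scaling), the median difference of the tested genes moved up by 0.18, from -0.02 to 0.16, so each direction below is relative to the bulk of the genes measured. The p-values measure the spread between arrays of a group, pooled over the 12 groups. In bulk RNA, fewer responding cells and less RNA per cell cannot be told apart.

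At 2 h, 95 genes were higher with LPS than with R848 (1.1% of the genes tested) and 8 were lower (0.0928%). Of the higher genes, 43 differed over 2-fold and 10 over 4-fold, and the median difference among them was 0.91. With the neqc background correction 72 of the 95 differed over 2-fold and 19 over 4-fold, Hdc (7.22-fold) and Tnfaip3 (6.27-fold) among them. The arrays of the 2 ligands did not overlap for any of the 103 called genes, against 11.6% of all tested genes with both LPS arrays above both R848 arrays and 14% with both below. The 103 were called on these same arrays, so this is no separate check. Cxcl10, the chemokine CXCL10 that attracts activated T cells, stood first. Its log2 signal was 12.58 and 13.04 with LPS and 8.73 and 9.22 with R848, a difference of 3.83 ± 0.25 or 14.3-fold (adjusted p = 4.86e-07). Under median scaling, 57 genes were higher and none lower, and 49 of the 103 calls were kept. The calls of 37 genes, all higher with LPS, were kept under each of 15 alternatives. A 16th, a fit of the 4 arrays alone, made no call in either direction, with 229 genes at an unadjusted p under 0.05, and is counted in the numbers of alternatives given below. No called gene changed sign in any. For leaving out 1 array this was fixed in advance, since the arrays of the called genes did not overlap. The fit of the 4 arrays alone keeps the same differences, so no sign could change there either.

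**Figure D1:**
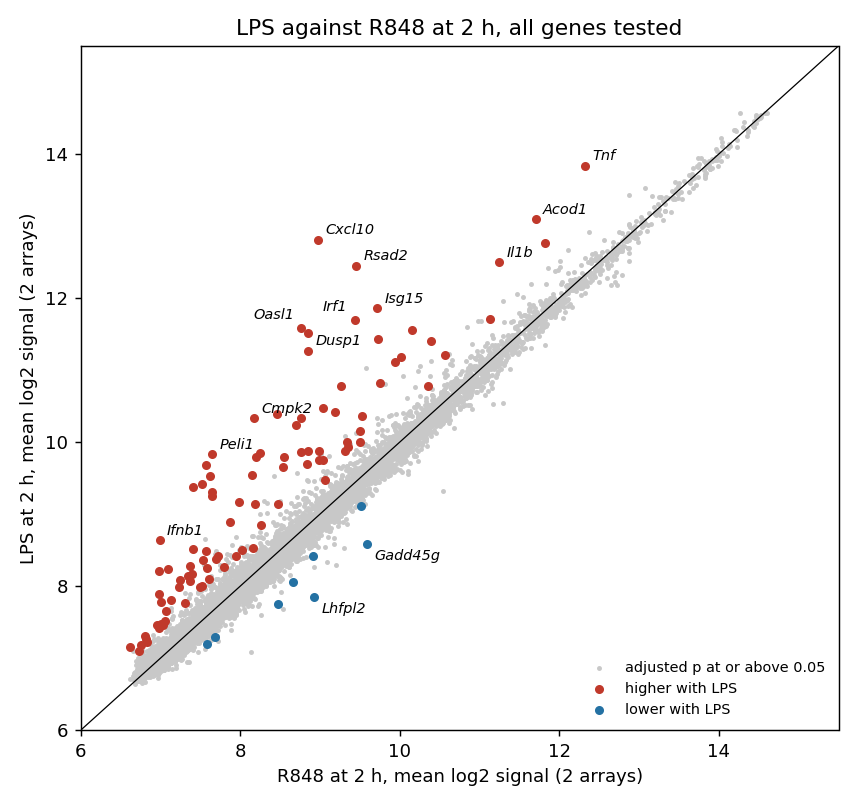
Mean log2 signal over the 2 LPS arrays at 2 h (y axis) against that over the 2 R848 arrays at 2 h (x axis) for the 8622 genes tested, with genes higher with LPS in red, lower in blue and the others in grey, and the line of equal signal in black. The red points spread over the whole range of signal, from Ifnb1 near background to Tnf among the bright genes, while the 8 blue points lie close under the line.

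Genes of the interferon-β arm were among the largest differences. Ifnb1, the interferon-β gene, had a log2 signal of 8.41 and 8.86 with LPS and 6.96 and 7.01 with R848, where untreated cells had 6.67 and 6.69. The LPS arrays lay clearly above the other 3 conditions, and the R848 arrays only just above the untreated ones. The difference was 1.65 ± 0.15 or 3.13-fold (adjusted p = 7.56e-06). With a background correction (neqc) the fold was 8.04. Irf1, a transcription factor of interferon-responsive genes, was measured at 11.72 and 11.68 with LPS and 9.17 and 9.70 with R848, a difference of 2.26 ± 0.23 (adjusted p = 2.57e-05). Of the interferon-β pathway list, 14 of 18 genes were tested, 4 were higher with LPS and none lower, and the median difference was 0.23 against -0.02 over all genes. The other 2 were Socs3 (1.40 ± 0.24), an inhibitor of cytokine receptor signalling, and Usp18 (1.02 ± 0.22), a protease that removes ISG15 and damps interferon receptor signalling. The Usp18 call was lost in 7 alternatives and the Socs3 call without LPS replicate B or without R848 replicate A. Irf7, the amplifier of the interferon response, differed by 0.18 ± 0.12 (adjusted p = 0.962), Irf3 by -0.11 ± 0.23 and Stat2 by 0.28 ± 0.10, none of which passed the test.

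Among the antiviral interferon-stimulated genes, 13 of 42 tested were higher with LPS and none was lower, with a median difference of 0.32. Rsad2, which encodes viperin, had 12.22 and 12.68 with LPS and 9.04 and 9.87 with R848, a difference of 3.0 ± 0.28 or 7.98-fold (adjusted p = 1.39e-05). Oasl1, an OAS-like regulator of interferon production, had 11.91 and 11.26 with LPS and 8.88 and 8.66 with R848, a difference of 2.81 ± 0.19 (adjusted p = 6.27e-07). For both genes the 2 LPS arrays lay above every R848, P3C and untreated array at 2 h. Cmpk2, a mitochondrial nucleotide kinase whose gene neighbours Rsad2, differed by 2.15 ± 0.22 (adjusted p = 2.46e-05). Isg15, the ubiquitin-like modifier, had 11.60 and 12.11 with LPS and 9.46 and 9.97 with R848 (difference 2.14 ± 0.25, adjusted p = 1.17e-04). Ifit3 and Ifit2, RNA-binding translation inhibitors, differed by 1.94 ± 0.24 (adjusted p = 2.27e-04) and 1.90 ± 0.13 (adjusted p = 4.86e-07). Ifit3b, a near-identical copy of Ifit3, differed by 1.22 ± 0.17, and its probe may share signal with Ifit3. Mx2, of the dynamin-like Mx family and annotated as a transcribed pseudogene in this build, had 10.42 and 10.26 with LPS and 8.72 and 8.82 with R848 (difference 1.57 ± 0.15, adjusted p = 1.39e-05).

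Not all antiviral genes had separated by 2 h. The 3 brightest members that did not pass were Ifitm3, a block to viral entry (0.16 ± 0.16), Ifi27 (-0.17 ± 0.12) and Ifi27l2a (-0.14 ± 0.14). Mx1 and Isg20, an RNA exonuclease, were detected on both LPS arrays and on neither R848 array, and did not pass (adjusted p = 0.0793 and 0.0813). Among cytosolic nucleic acid sensors and their regulators, 1 of 11 was higher, Trex1, the exonuclease that clears cytosolic DNA. It had 10.73 and 10.83 with LPS and 9.22 and 9.31 with R848 (difference 1.52 ± 0.18, adjusted p = 1.35e-04). Dhx58, which encodes the RIG-I-like receptor LGP2, differed by 0.51 ± 0.13, Cgas, the DNA sensor, by 0.42 ± 0.30 and Ddx41 by -0.09 ± 0.17, with no call.

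**Figure D2:**
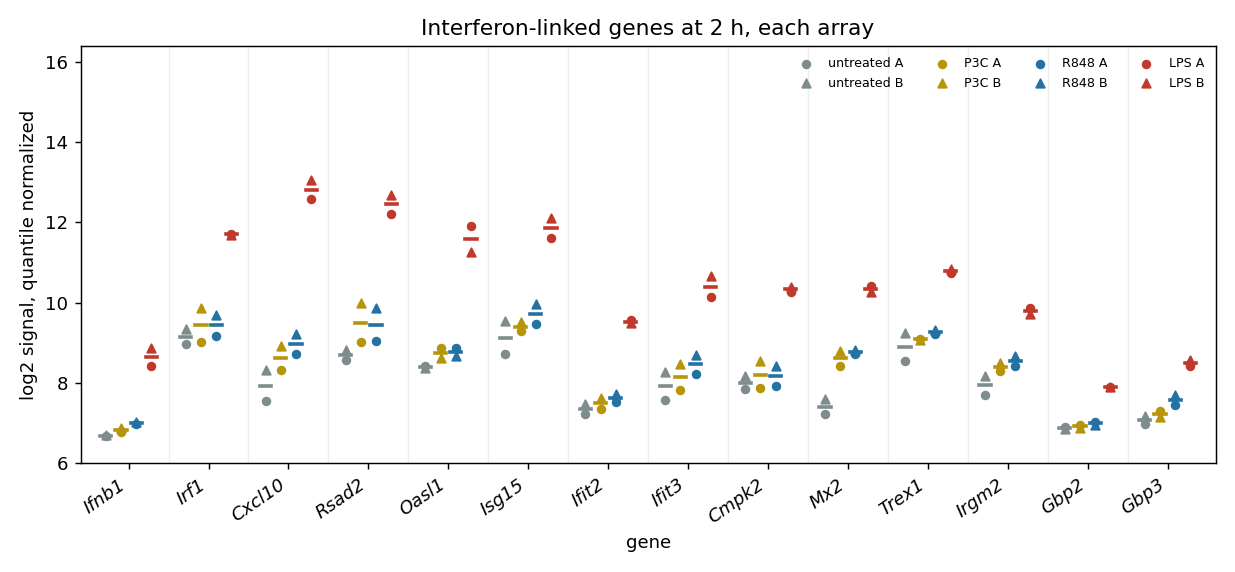
Log2 signal (y axis) of 14 interferon-linked genes (x axis) on each array at 2 h, circles for replicate A and triangles for B, with a bar at each group mean. For every gene shown, both LPS arrays lie above both R848 arrays, and the R848 arrays lie close to the P3C arrays, with which they shared slides.

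The GTPases that interferons induce had begun to separate. Of 10 tested guanylate-binding proteins and immunity-related GTPases, which act on the membranes around intracellular microbes, 6 were higher with LPS, with a median difference of 0.68. Irgm2 had 9.85 and 9.72 with LPS and 8.42 and 8.68 with R848 (difference 1.24 ± 0.14, adjusted p = 1.14e-04), Igtp differed by 0.96 ± 0.17 and Gbp3 by 0.92 ± 0.12 (adjusted p = 2.74e-04). Gbp2 had 7.90 and 7.89 with LPS and 7.03 and 6.94 with R848 (difference 0.91 ± 0.07, adjusted p = 1.34e-06), with the R848 arrays just above untreated cells, 6.90 and 6.86. Gbp2b differed by 0.77 ± 0.08. The Igtp call was lost without LPS replicate B or without R848 replicate A. Gbp5 was not above background on either R848 array, and its LPS signal was at least 1.17-fold higher (adjusted p = 0.00189), a bound taken against the signal at which probes pass detection, and its call was lost under median scaling. The GBP genes are close copies of each other, so probes may read more than 1. The members that did not pass were Ifi47 (0.59 ± 0.16), Gvin1 (0.40 ± 0.17), Irgm1 (0.04 ± 0.22) and Gbp7, which was not above background with either ligand. Irgm1 gave different answers by probe, since a dimmer probe differed by 1.07 and passed (adjusted p = 3.46e-04) when every probe was tested on its own. In the immunoproteasome and peptide loading list, which interferons also raise, none of 16 tested genes was called, with values of 0.27 ± 0.14 for Psmb8, -0.05 ± 0.14 for B2m and 0.15 ± 0.19 for H2-D1.

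Start-site sequences were searched for the elements that interferon-activated factors, NF-κB, CREB and AP-1 read. The windows are RefSeq promoters of GRCm38.p6 from 250 bases before to 50 after a start site. A gene counts as holding an element if any of its windows does. Of the 95 higher genes, 73 had a window, and 17 of them (23.3%) held the ISRE core GAAANNGAAA on either strand, against 3.97% of 6577 tested genes and 3.44% of all 32851 windows. The cyclic AMP response element TGACGTCA was found in 4 (5.48%, against 3.92% of tested genes and 1.79% of all windows) and the AP-1 site TGANTCA in 13 (17.8%, against 6.13% and 7.81%). None of the 7 lower genes with a window held the ISRE core or either of these elements. The κB consensus was searched rightly on the forward strand only, so its shares are not given. These are letter matches, not binding sites. Some ISRE holders are close copies with the same or nearly the same upstream stretch, such as Ifit3 and Ifit3b, and Igtp and Irgm2. Each is counted as its own gene, so the shares do not count independent promoters. The stretches below are shown for genes the results turn on, upstream of the start site, with matches in capitals. Those of Isg15, Ifit3, Rsad2 and Gbp2 hold ISRE cores, which overlap each other in Isg15, Cxcl10 holds both an ISRE core and κB matches, Ifnb1 and Cxcl2 hold κB matches, and Dusp1 holds the cyclic AMP response element.
Cxcl10 (chr5:92348971-92349114, minus strand): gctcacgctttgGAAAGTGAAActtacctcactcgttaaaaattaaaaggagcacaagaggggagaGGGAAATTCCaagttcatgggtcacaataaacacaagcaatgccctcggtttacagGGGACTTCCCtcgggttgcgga
Isg15 (chr4:156200863-156200908, minus strand): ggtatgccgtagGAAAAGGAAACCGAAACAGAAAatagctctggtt
Ifit3 (chr19:34583361-34583428, plus strand): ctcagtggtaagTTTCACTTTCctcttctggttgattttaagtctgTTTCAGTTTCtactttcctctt
Rsad2 (chr12:26456551-26456584, minus strand): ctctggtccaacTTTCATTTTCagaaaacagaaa
Gbp2 (chr3:142620592-142620625, plus strand): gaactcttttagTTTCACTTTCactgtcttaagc
Ifnb1 (chr4:88522889-88522922, minus strand): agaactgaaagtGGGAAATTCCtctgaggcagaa
Cxcl2 (chr5:90903790-90903823, plus strand): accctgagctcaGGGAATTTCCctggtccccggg
Dusp1 (chr17:26508596-26508627, minus strand): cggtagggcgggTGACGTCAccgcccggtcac

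Chemokine genes fell into those that differed and those that did not. Of 13 tested, 5 were higher with LPS (median 0.29). After Cxcl10, the next was Ccl5, which encodes RANTES, at 11.84 and 11.19 with LPS and 9.02 and 8.68 with R848 against 7.13 and 7.14 in untreated cells (difference 2.66 ± 0.20, 6.33-fold, adjusted p = 1.14e-06). Both ligands had raised Ccl5, and LPS further. Cxcl2, a neutrophil attractant, had 11.10 and 11.76 with LPS and 9.25 and 10.20 with R848 (difference 1.71 ± 0.27, adjusted p = 0.00251), a call that was lost without LPS replicate B or without R848 replicate A. Its A and B arrays differed more than those of most genes, with B higher for both ligands. Ccl2, the monocyte attractant MCP-1, had 9.58 and 9.51 with LPS and 8.11 and 8.20 with R848 (difference 1.39 ± 0.11, adjusted p = 1.65e-06), and Ccl7 differed by 1.15 ± 0.10 (adjusted p = 1.01e-05). Ccl4, the chemokine MIP-1β, had 14.45 and 14.47 with LPS and 14.39 and 14.50 with R848 (difference 0.01 ± 0.14), so its arrays overlapped. Ccl3, the chemokine MIP-1α, had 14.66 and 14.49 with LPS and 14.18 and 14.36 with R848 (difference 0.31 ± 0.23). Ccl4 and Ccl3 were the 9th and 11th brightest genes on these arrays, at means of 14.45 and 14.42 where the brightest gene had 14.59, and whether the top of the range limits them was not tested. Ccl9 differed by 0.25 ± 0.20.

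Cytokine genes held 10 calls among 26 tested (median 0.23). Tnf, the tumour necrosis factor gene, rose with both ligands, to 13.88 and 13.79 with LPS and 12.46 and 12.19 with R848 from 8.91 and 9.59 in untreated cells, and LPS was higher by 1.51 ± 0.20 or 2.85-fold (adjusted p = 3.59e-04). Il1a had 10.15 and 10.33 with LPS and 8.62 and 8.78 with R848 (difference 1.54 ± 0.13, adjusted p = 6.27e-06), and Il1b had 12.42 and 12.57 with LPS and 11.28 and 11.21 with R848 (difference 1.25 ± 0.18, adjusted p = 9.61e-04). Neither interleukin-1 gene was above background in untreated cells, so Il1b was at least 48.2-fold above untreated with LPS and at least 20.3-fold with R848. The Il1b call was lost under median scaling. Lif, an interleukin-6 family cytokine, had 9.10 and 9.23 with LPS and 8.22 and 7.76 with R848 (difference 1.18 ± 0.11, adjusted p = 1.39e-05), and Tnfsf9, the 4-1BB ligand, differed by 1.11 ± 0.23 (adjusted p = 0.0259), a call lost in 4 alternatives. The other calls were Il27 (1.11 ± 0.10), Osm (0.86 ± 0.15), Il15 (0.84 ± 0.11), Edn1 (0.68 ± 0.10) and Csf3 (0.46 ± 0.09). The Osm and Csf3 calls were lost without LPS replicate B or without R848 replicate A, and the Il15 and Csf3 calls under median scaling. Il6 was not above background on any of the 4 arrays. Pdgfb, Il1rn (the interleukin-1 receptor antagonist) and Tgfb1 were the brightest members without a call, at 0.23 ± 0.30, 0.23 ± 0.28 and -0.10 ± 0.53.

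Feedback genes of NF-κB were mostly induced by both ligands, and some of them also differed between the ligands. Of 23 tested NF-κB feedback and target genes, 19 rose with LPS against untreated cells and 18 with R848. Between the ligands 3 were higher with LPS (median 0.28), where 1.1% of all genes tested were. Tnfaip3, which encodes the deubiquitinase A20, had 9.68 and 9.15 with LPS, 7.68 and 7.38 with R848 and 6.99 and 7.09 untreated (difference 1.89 ± 0.14, 3.7-fold, adjusted p = 1.34e-06). Nfkbia, which encodes the inhibitor IκBα, had 12.79 and 12.73 with LPS and 11.84 and 11.80 with R848 (difference 0.94 ± 0.12, adjusted p = 3.22e-04), a call lost under median scaling. Nfkbiz, a nuclear IκB, differed by 0.57 ± 0.13 (adjusted p = 0.0376), lost in 8 alternatives. Sod2, Ier3 and Bcl2a1d, the brightest without a call, differed by 0.24 ± 0.10, 0.51 ± 0.29 and 0.14 ± 0.23. In 22 of the 23 genes the difference was above 0, where 3677 of all 8622 genes were.

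The MAP kinase phosphatase Dusp1 was the clearest difference among the feedback genes. Dusp1 dephosphorylates p38 and JNK, and its signal was 11.18 and 11.35 with LPS, 8.67 and 9.03 with R848, 8.52 and 8.85 with P3C and 7.89 and 8.07 in untreated cells. The LPS arrays stood well apart from the rest, and R848 and P3C overlapped. The difference was 2.42 ± 0.15 or 5.34-fold (adjusted p = 3.41e-07). Dusp2 had 10.48 and 10.35 with LPS and 9.06 and 9.33 with R848 (difference 1.22 ± 0.14, adjusted p = 8.23e-05), with the second probe of the gene at 0.85 and no call. Of the 10 tested phosphatases and Sprouty-related brakes these 2 were called, and Dusp4, Spred1 and Dusp16, the brightest others, differed by 0.52 ± 0.15, 0.24 ± 0.30 and 0.22 ± 0.11. Among RNA decay factors and SOCS proteins, 3 of 13 were higher, Socs3, Cish (0.91 ± 0.15) and Zfp36 (1.07 ± 0.21, adjusted p = 0.0172), which encodes the mRNA-destabilising protein tristetraprolin. The Zfp36 call was lost when any of the 4 arrays was left out, and the Cish call under median scaling or without LPS replicate A. Zc3h12a, Elavl1 and Zfp36l1 differed by 0.36 ± 0.20, 0.07 ± 0.15 and -0.15 ± 0.32.

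In the immediate-early list 1 transcription factor was called, where 1.1% of all genes tested were higher with LPS. Of 24 tested AP-1, EGR and related factors 1 was higher, Csrnp1, a nuclear protein induced by cytokines, at 9.11 and 9.50 with LPS and 7.51 and 7.80 with R848 (difference 1.65 ± 0.16, adjusted p = 2.25e-05), and the list's median was -0.01. The brightest without a call, Cebpb, Btg1 and Ets2, differed by 0.11 ± 0.37, 0.11 ± 0.15 and -0.10 ± 0.12. In the MAP kinase cascade, 1 of 18 was higher, Map3k8 (0.48 ± 0.08, adjusted p = 0.00593), the kinase TPL2 that activates ERK downstream of TLRs, a call lost in 4 alternatives. Mapkapk2, Map2k3 and Map2k2 differed by 0.19 ± 0.38, 0.14 ± 0.19 and 0.03 ± 0.24.

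**Figure D3:**
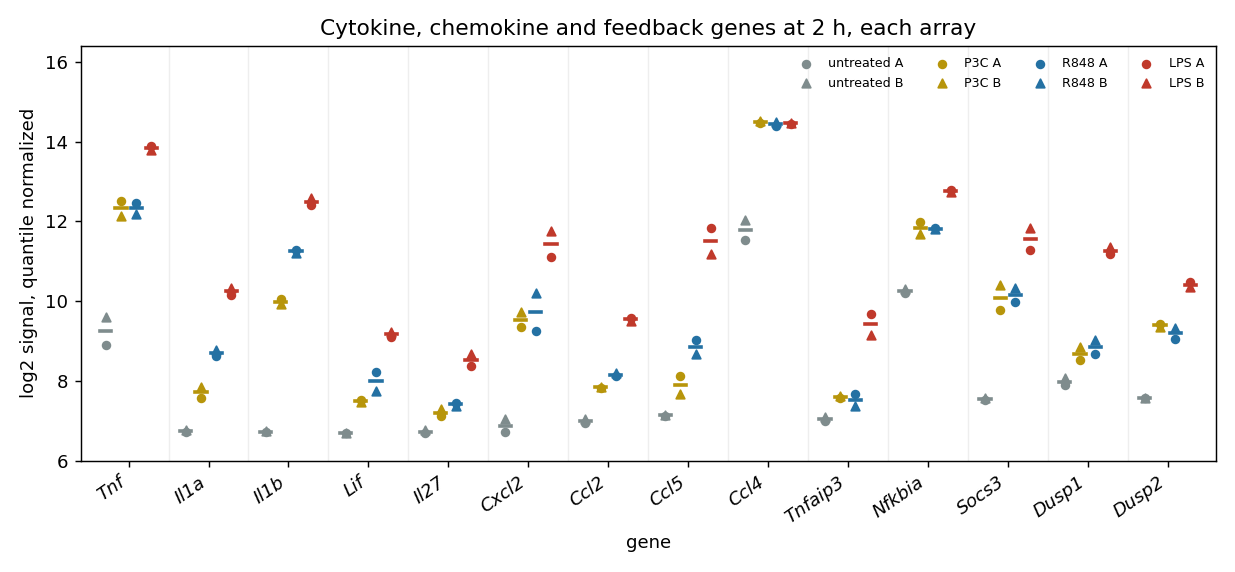
Log2 signal (y axis) of 14 cytokine, chemokine and feedback genes (x axis) on each array at 2 h, circles for replicate A and triangles for B, with a bar at each group mean. Most were raised over untreated cells by all 3 ligands and highest with LPS, while the Ccl4 arrays of the 3 ligands overlap near the top of the range.

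The receptors and adapters themselves did not pass the test between the ligands. Tlr4 had 7.37 and 7.35 with LPS and 7.57 on both arrays with R848 (difference -0.21 ± 0.08), Ly96 differed by -0.07 ± 0.23, Cd14 by 0.19 ± 0.12, Ticam1 by -0.11 ± 0.09 and Ticam2 by -0.11 ± 0.09. On the R848 side, Tlr7 had 9.21 and 9.18 with LPS and 9.06 and 9.01 with R848 (difference 0.15 ± 0.07), Unc93b1 differed by -0.05 ± 0.23 and Myd88 by 0.29 ± 0.16. In the TLR7 and MyD88 list none of 27 tested genes was called with limma (median 0.05), and the brightest, Ctsb, Tlr2 and Lgmn, differed by 0.05 ± 0.15, 0.56 ± 0.22 and -0.06 ± 0.22. Of the TLR4 and TRIF list, 2 of 14 were higher (median 0.03). Peli1, an E3 ubiquitin ligase of TLR signalling, had 10.36 and 9.31 with LPS and 7.77 and 7.53 with R848 against 7.52 and 7.50 untreated (difference 2.19 ± 0.26, 4.55-fold, adjusted p = 1.42e-04). Ikbke, which encodes the TBK1-related kinase IKKε, differed by 0.38 ± 0.08 (adjusted p = 0.0417), a call lost in 9 alternatives, and Tbk1 and Ly86 by 0.21 ± 0.14 and 0.0 ± 0.16.

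Surface and survival genes added further calls. Of 14 tested costimulatory and adhesion molecules 3 were higher (median 0.17). Cd69, an early activation marker, had 9.57 and 9.79 with LPS and 7.51 and 7.62 with R848 (difference 2.12 ± 0.13, 4.33-fold, adjusted p = 3.41e-07), the smallest p-value of the comparison together with Dusp1. Cd274, the checkpoint ligand PD-L1, differed by 0.69 ± 0.13, and Cd40 by 0.83 ± 0.16, lost without LPS replicate B or without R848 replicate A and, for Cd40, in 4 further alternatives, where another bright probe of the gene gave 0.46 with no call. Cd83, Icam1 and Cd44 differed by 0.66 ± 0.20, 0.76 ± 0.21 and 0.02 ± 0.17 with no call. Of 21 apoptosis and survival genes 3 were higher, Pim1 (0.60 ± 0.10), Fas (0.58 ± 0.10) and Gadd45a (0.58 ± 0.13), and 1 was lower, Gadd45g, with Mcl1, Gadd45b and Phlda1 at 0.21 ± 0.14, 0.04 ± 0.24 and 1.46 ± 0.50. The Fas and Gadd45a calls were lost in 6 and 9 alternatives and the Pim1 call under median scaling.

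Acod1, the itaconate-producing enzyme, was the 1 call among 9 tested genes of itaconate, nitric oxide and prostaglandin synthesis, at 13.01 and 13.18 with LPS and 11.66 and 11.75 with R848 from 8.58 and 9.21 untreated (difference 1.39 ± 0.18, 2.61-fold, adjusted p = 4.01e-04). Nos2, the inducible nitric oxide synthase, was detected on 1 LPS array and no R848 array, and Gch1, which makes its cofactor, differed by 0.18 ± 0.23. Hdc, histidine decarboxylase, which makes histamine, was in no list and had 9.06 and 9.69 with LPS and 7.20 and 7.62 with R848 (difference 1.96 ± 0.19, 3.9-fold, adjusted p = 1.79e-05). Saa3, an acute-phase apolipoprotein, had 9.67 and 10.08 with LPS and 8.83 and 8.87 with R848 (difference 1.02 ± 0.19, adjusted p = 0.00878), lost in 4 alternatives. C3, the complement component, differed by 0.11 ± 0.13 and Stat3 by -0.30 ± 0.23. Marcksl1 gave different answers by probe. Its brightest probe differed by 0.67 ± 0.35 (adjusted p = 0.848), while 2 dimmer probes differed by 1.50 and 1.37 and passed at adjusted p = 0.0199 and 0.027 when every probe was tested on its own. Of the 43 called genes with other detected probes, 50 of 53 other probes had the sign of the one used, 25 of them passed, and none was called in the opposite direction.

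Another 45 called genes were in none of the lists. Ppp1r15a, which encodes GADD34, a phosphatase subunit that restores translation after stress, had 9.40 and 9.12 with LPS and 7.75 and 7.55 with R848 (difference 1.61 ± 0.18, adjusted p = 7.68e-05). Ccrl2, a chemerin-binding receptor, differed by 1.60 ± 0.22, Cdk5r1, an activator of the kinase CDK5, by 1.60 ± 0.18 and Nupr1, a stress-response chromatin protein, by 1.17 ± 0.18. These 4 were higher on both LPS arrays than on either R848 array, and under median scaling the calls of Ppp1r15a, Ccrl2 and Nupr1 were lost. Nlrp3, the inflammasome sensor, had 8.14 and 8.00 with LPS and 7.29 and 7.46 with R848 (difference 0.69 ± 0.07, adjusted p = 2.57e-05), a call lost under median scaling. Ptafr, the receptor of platelet-activating factor, differed by 0.48 ± 0.08, Pde4b, a cyclic AMP phosphodiesterase, by 0.43 ± 0.09, Timp1, a metalloproteinase inhibitor, by 0.68 ± 0.12 and Jak2, a cytokine receptor kinase, by 0.41 ± 0.08. Batf2, a basic leucine zipper factor, differed by 0.49 ± 0.08 and Helz2, a helicase-like coactivator, by 0.47 ± 0.10. These calls were less stable, with Jak2 lost in 8 alternatives, among them leaving out any 1 of the 4 arrays, Helz2 in 6, Pde4b in 5, Batf2 in 4 and Ptafr and Timp1 in 3. For 6 called genes neither R848 array was above background, Gbp5 and 5 others for which the LPS signal was at least 1.3-fold (A530032D15Rik), 1.25-fold (Nod2, the muramyl dipeptide sensor), 1.23-fold (AI504432), 1.19-fold (Sp140) and 1.12-fold (Plat, tissue plasminogen activator) higher. Plat was lost in 5 alternatives, A530032D15Rik and Sp140 in 4 and Nod2 and AI504432 in 3. These numbers include the filter for detection on all 4 arrays, which these genes cannot pass and under which they were not tested.

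Metabolic and cell cycle lists held no calls with limma. None of 21 glycolysis and hypoxia genes, 15 NRF2 targets, 18 LXR and sterol genes or 29 replication and cell cycle genes passed the test, with medians of -0.02, -0.02, -0.04 and 0.0. The brightest of each differed by -0.02 ± 0.16 (Pkm), -0.04 ± 0.12 (Fth1), -0.05 ± 0.22 (Sqle) and -0.31 ± 0.16 (Ccnd1, cyclin D1). The glycolysis and hypoxia list also held the lowest difference of all genes tested, -1.21, without a call. Over all genes, 565 had an unadjusted p under 0.05. The lists together hold 583 genes, of which 394 were tested, and 58 of the 103 called genes were in a list.

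**Figure D4:**
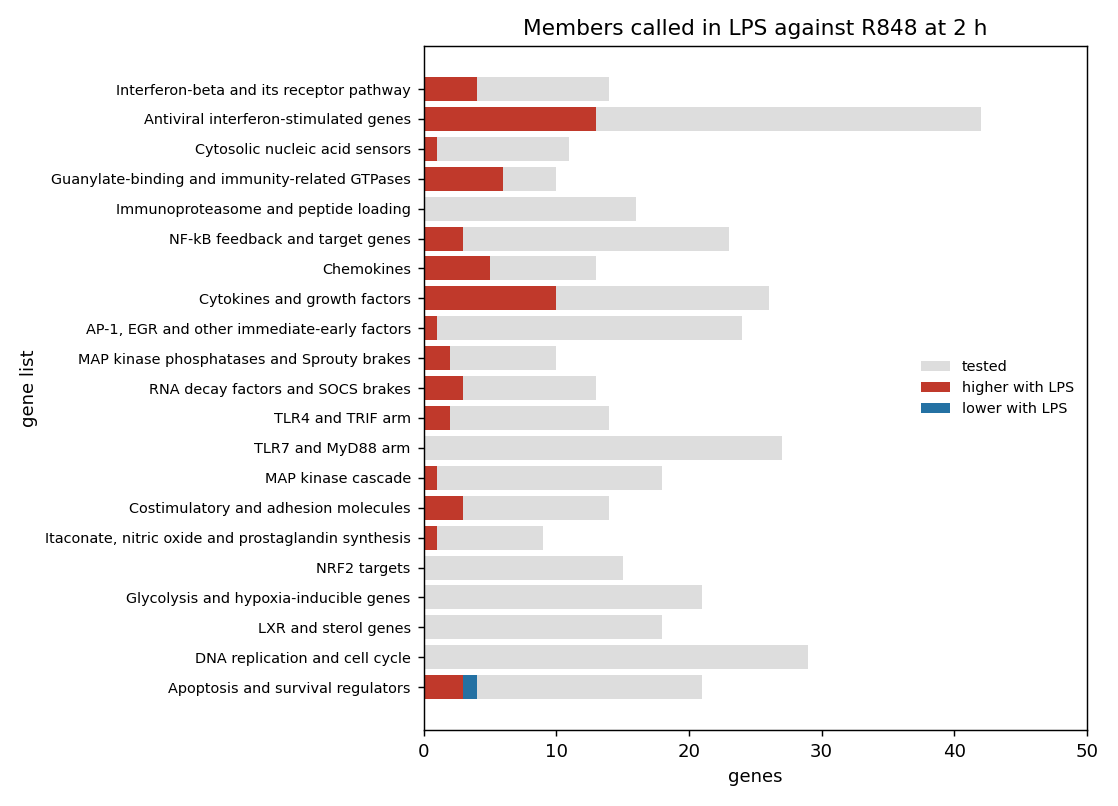
Number of genes tested in each of 21 gene lists (grey, x axis in genes) and, within it, the number called higher (red) or lower (blue) with LPS than with R848 at 2 h. The antiviral list has the most calls, 13 of 42, and the GTPase list the highest share, 6 of 10.

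Only 8 genes were lower with LPS than with R848, and these were smaller differences of 1.30 to 2.12-fold. Lhfpl2, a membrane protein of the tetraspan family, had 7.92 and 7.78 with LPS, 8.92 and 8.94 with R848 and 10.12 and 10.06 untreated (difference -1.08 ± 0.08, adjusted p = 7.46e-07). It had fallen with both ligands, and further with LPS. The same order held for Fam78a (-0.73 ± 0.15), the deubiquitinase gene Usp2 (-0.61 ± 0.08), the homeobox factor Hhex (-0.49 ± 0.10), Midn (-0.41 ± 0.09) and Angptl4 (-0.39 ± 0.09), an inhibitor of lipoprotein lipase, each of which fell with both ligands against untreated cells. Npy, which encodes neuropeptide Y, differed by -0.38 ± 0.08 and had risen with R848 by 0.45 ± 0.08. Gadd45g, a stress-response protein, had 8.43 and 8.74 with LPS and 9.38 and 9.79 with R848 around 8.91 and 9.31 in untreated cells (difference -1.0 ± 0.21, adjusted p = 0.0288). All 8 calls were lost under median scaling, and leaving out 1 array left 2 to 5 of the 8.

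Set against untreated cells at 2 h, LPS raised 476 genes (5.52%) and lowered 546 (6.33%), and R848 raised 288 (3.34%) and lowered 279 (3.24%). Both comparisons use the same untreated arrays, which share no slide with the LPS or R848 arrays at 2 h. Of the 95 genes higher with LPS, 43 had risen with both ligands and 48 had risen with LPS while R848 gave no call. In the 48 the change with R848 ran from -0.32 to 0.75 with a median of 0.18, beside a median of 1.06 with LPS. The class is defined by these calls, so the gap between its medians is no separate result. Some members just missed the R848 call, such as Ccl7 (0.36 ± 0.10, adjusted p = 0.0502), Zfp36 (0.72 ± 0.21, adjusted p = 0.0553) and Tnfaip3 (0.48 ± 0.14, adjusted p = 0.0592). The 48 include Irf1 (2.55 ± 0.23 with LPS, 0.28 ± 0.23 with R848), Cmpk2 (2.32 ± 0.22 and 0.17 ± 0.22), Peli1 (2.32 ± 0.26 and 0.14 ± 0.26), Ifit2 (2.18 ± 0.13 and 0.28 ± 0.13) and Parp14, an antiviral ADP-ribosyltransferase (1.58 ± 0.18 and 0.14 ± 0.18). In the 43 the medians were 2.07 with LPS and 1.24 with R848, and they include Tnf, Il1b, Acod1, Socs3, Cxcl10 and Ccl5. The same elements were searched in the windows of each class. An ISRE core was held by 11 of the 36 genes with a window among the 48 (30.6%) and by 5 of 33 among the 43 (15.2%), with close copies such as Ifit3 and Ifit3b counted separately. Another 3 genes, Dcakd, Rbm43 and Tpst1, had fallen with R848 with no call for LPS, and Tspan3 had a call with neither. The Rbm43 call was lost in 11 alternatives, Tspan3 in 9, Dcakd in 4 and Tpst1 in 2.

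Seen from the shared response, 261 genes had risen with both ligands, and 43 of them (16.5%) were higher with LPS and none lower, with a median difference of 0.12. A further 250 genes had fallen with both, of which 6 were lower with LPS and none higher. Of 27 genes that rose with R848 without a call for LPS, 1, Npy, was lower with LPS. Genes that rose with both and had no call between the ligands include Ccl4 (2.67 ± 0.14 with LPS, 2.66 ± 0.14 with R848) and Gadd45b (3.02 ± 0.24 and 2.98 ± 0.24).

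Few genes were called between R848 and P3C, a ligand of TLR2, which also signals through MyD88. Between R848 and P3C at 2 h, 2 genes were called (0.0232%), both higher with R848, and 155 had an unadjusted p under 0.05. They were Il1b, with 10.04 and 9.94 on the P3C arrays (difference 1.26 ± 0.18, adjusted p = 0.0211), and Il1a, with 7.58 and 7.85 on the P3C arrays (difference 0.98 ± 0.13, adjusted p = 0.0211). Over the 95 genes higher with LPS than R848, R848 minus P3C ran from -0.27 to 1.26 with a median of 0.07, and the LPS mean was above the P3C mean in all 95. These comparisons share the R848 or the LPS arrays. The R848 and P3C arrays of each letter at 2 h lay on the same slide, while LPS shared that slide for B only. Whether slide bears on the small number of calls between R848 and P3C was not tested.

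Fewer genes differed between the ligands at 1 h and more at 4 h. At 1 h, 9 genes were higher with LPS than with R848 (0.104%) and 1 lower (0.0116%), at 4 h 298 (3.46%) and 106 (1.23%). Of the 95 genes higher at 2 h, 69 were also higher at 4 h, which is 72.6% of the 2 h genes and 23.2% of the 298, and 26 had no call at 4 h. The median difference over the 95 went from 0.10 at 1 h to 0.91 at 2 h, the time they were chosen on, and 1.08 at 4 h. The 6 genes higher at all 3 times were Cxcl10, Ifnb1, Oasl1, Tnfaip3, Csrnp1 and Trex1. Cxcl10 differed by 2.68 ± 0.25 at 1 h, 3.83 ± 0.25 at 2 h and 3.70 ± 0.25 at 4 h, and Ifnb1 by 1.18 ± 0.15, 1.65 ± 0.15 and 2.14 ± 0.15. Ifnb1 was detected on 1 of 2 R848 arrays at 1 h and at 4 h. Dusp1 and Ppp1r15a, which encodes the phosphatase regulator GADD34, were called higher at 1 and 2 h but not at 4 h. By then Dusp1 differed by 0.18 ± 0.15 (adjusted p = 0.691) and Ppp1r15a by 0.43 ± 0.18 (adjusted p = 0.258).

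Tested as an interaction, the difference moved up from 1 to 2 h in 29 genes (0.336%) and down in 2 (0.0232%). Rsad2 went from 0.90 ± 0.28 at 1 h to 3.0 ± 0.28 at 2 h, a change of 2.10 ± 0.40 (adjusted p = 0.0311). Ifit2 went from 0.22 ± 0.13 to 1.90 ± 0.13 (change 1.68 ± 0.18, adjusted p = 3.68e-04) and Cd69 from 0.49 ± 0.13 to 2.12 ± 0.13 (change 1.63 ± 0.18, adjusted p = 4.98e-04). At 1 h these genes had no call between the ligands, and at 2 h all did. From 2 to 4 h it moved up in 86 genes (0.997%) and down in 20 (0.232%). Gbp2b went from 0.77 ± 0.08 at 2 h to 3.30 ± 0.08 at 4 h (change 2.52 ± 0.11, adjusted p = 3.50e-09), Gbp2 from 0.91 ± 0.07 to 3.08 ± 0.07 and Gbp3 from 0.92 ± 0.12 to 2.68 ± 0.12. At 4 h, 9 of the 10 GTPases and 28 of the 42 antiviral genes were higher with LPS, Mx1 (1.25 ± 0.06) and Isg20 (1.65 ± 0.08) among them.

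Several feedback and cytokine genes ran the other way. Dusp1 went from 2.42 ± 0.15 at 2 h to 0.18 ± 0.15 at 4 h (change -2.24 ± 0.21, adjusted p = 1.55e-05) and Tnf from 1.51 ± 0.20 to -0.21 ± 0.20 (change -1.72 ± 0.28, adjusted p = 0.00392). Nfkbia, Cxcl2, Socs3 and Dusp2 had no call at 4 h, with differences of -0.20 ± 0.12, 0.28 ± 0.27, 0.02 ± 0.24 and -0.17 ± 0.14. The change itself passed for Nfkbia (adjusted p = 0.00188) and Dusp2 (adjusted p = 8.79e-04) but not for Cxcl2 (adjusted p = 0.133) or Socs3 (adjusted p = 0.0874). Gadd45g, lower with LPS at 2 h, stood at 0.70 ± 0.21 by 4 h (change 1.70 ± 0.30, adjusted p = 0.00732). Under median scaling the interaction passed for 7 genes moving up and none moving down from 1 to 2 h, and for 21 moving up and 3 down from 2 to 4 h.

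**Figure D5:**
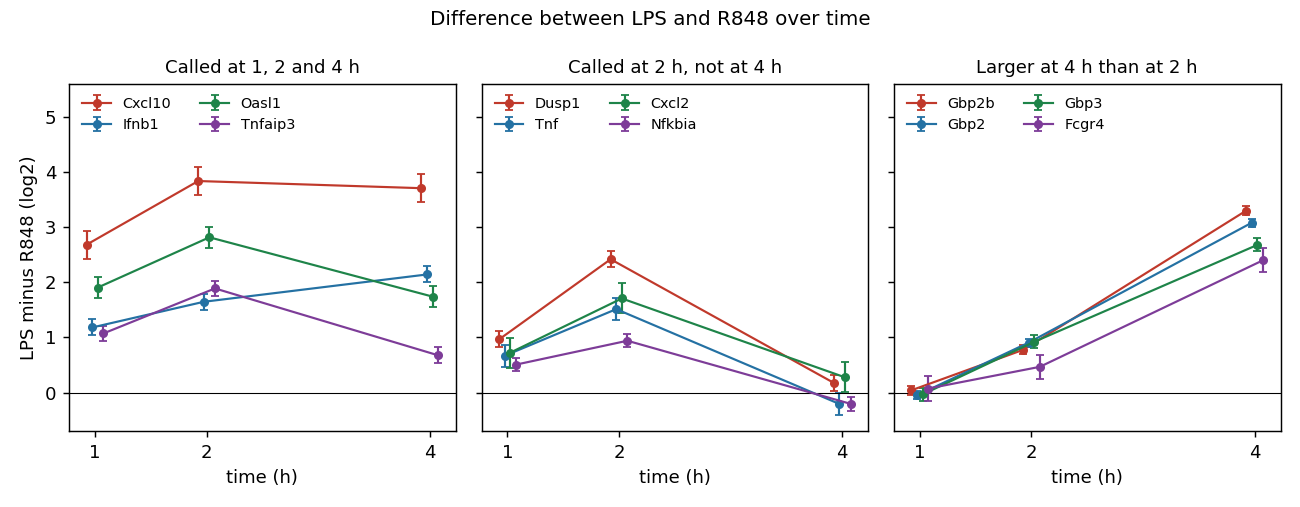
LPS minus R848 (y axis, log2) at 1, 2 and 4 h (x axis, hours) for 12 genes in 3 panels, points for the estimate and bars for its SE, with the points of a time set slightly apart. The left panel shows genes called at all 3 times, the middle panel genes with their highest value at 2 h and near 0 at 4 h, and the right panel genes near 0 at 1 h and highest at 4 h.

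The cells carried the markers of their label. Of 18 macrophage markers on the array, 13 were detected on all 4 arrays, 3 on some and 2 (Fcer1g and Emb) on none, and no tested marker was called between the ligands. Cd14, Lyz2 and Laptm5, the brightest, differed by 0.19 ± 0.12, 0.12 ± 0.09 and 0.08 ± 0.10. The summed linear signal of the list was 69621 to 77856 on the LPS arrays and 67898 to 70707 on the R848 arrays. Of 18 markers of other cell types on the array, 14 were detected on none of the 4 arrays, among them Cd3e of T cells, Ms4a1 of B cells and Pecam1 of endothelium, and 2, Hbb-b1 and Krt8, on 1 array each. Ctsk, a cathepsin that osteoclasts also express, was detected on all 4 arrays at 10.27 to 10.48 and S100a8 of neutrophils on all 4 at 6.95 to 7.27, close to background. The summed signal of the 18 markers was 3668 to 3697 with LPS and 3764 to 3826 with R848.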

How the data were processed

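The paper's methods name Illumina MouseRef-8 microarrays for the RNA of RAW264.7 cells, and the submitters' processing notes name GenomeStudio 2011.1. The deposited intensities hold 45281 probes per array, of which 19969 were listed in the annotation used. The unlisted probes had no gene name here. The authors deposited probe intensity with a detection p-value for each array, and also normalized log2 values, which hold 23937 probes. The reason for the different probe counts is not known. Here intensities were put on a log2 scale and quantile-normalized over the 24 arrays, with no background subtracted. A probe was kept if both arrays of any 1 of the 12 groups gave it a detection p below 0.01 (14119 probes, 12540 with a gene name), and the brightest probe stood for each gene (8622 genes). Names came from the platform annotation, updated by gene identifier or accession. A group-means model over the 24 arrays was fitted in limma 3.58.1 (R 4.3.3), with Benjamini-Hochberg adjustment per comparison and calls at an adjusted p under 0.05. The study's methods name no test for these arrays. A gene not above background in a group has only a bound, taken against the lowest signal that passed detection. Named genes were the 15 largest calls each way, the largest changes between times and, per list, the largest calls and the brightest genes without one, plus receptors, adapters and a few genes the study discusses. The genes and lists were chosen with earlier results of these data known. Genes named beyond that rule were chosen after their values were seen. The model was run on simulated data with independent noise on each array, which hold no slide or letter structure. Alternatives were other scalings, background correction, filters, probe summaries, slide and letter blocks, and leaving out each array.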

Additional observations from a re-analysis of the deposited data

Results flagged for a closer look

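The difference between LPS and R848 changed between time points in 2 sets of genes, tested as an interaction in limma. From 1 to 2 h the 10 largest changes that passed (LPS minus R848 at 2 h less that at 1 h, log2 ± SE) were Rsad2 2.10 ± 0.40, Cmpk2 1.93 ± 0.31, Ifit3 1.85 ± 0.34, Irf1 1.78 ± 0.32, Ccl5 1.73 ± 0.28, Hdc 1.71 ± 0.27, Ifit2 1.68 ± 0.18, Cd69 1.63 ± 0.18, Mx2 1.53 ± 0.21 and Dusp1 1.45 ± 0.21, with adjusted p from 3.68e-04 to 0.0311. From 2 to 4 h the 10 largest were Gbp2b 2.52 ± 0.11, Dusp1 -2.24 ± 0.21, Gbp2 2.17 ± 0.10, Fcgr4 1.93 ± 0.31, Gbp3 1.76 ± 0.17, Gm15753 1.73 ± 0.19, Tnf -1.72 ± 0.28, Gadd45g 1.70 ± 0.30, Serpina3f 1.69 ± 0.08 and A530032D15Rik 1.64 ± 0.13, with adjusted p from 3.50e-09 to 0.00732. Dusp1 stands in both sets, with a change up and then down. Serpina3f was not above background at 2 h with either ligand, nor with R848 at 4 h, and A530032D15Rik was not with R848 at 2 h, so the fitted changes of these 2 genes start from background and do not measure their size.

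Probes without a gene name were kept out of the comparison. Of 1579 such probes that passed detection, 7 were higher with LPS than with R848 at 2 h and 1 was lower, with the largest difference at 1.14 and the lowest at -0.75.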

How the results depend on the processing

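Each group holds 2 arrays, and their number limits the precision. Of the 103 calls, 37 were lost only in the fit of the 4 arrays alone, 37 in 2 to 4 alternatives and 29 in 5 or more. None changed sign, which for leaving out 1 array or fitting the 4 arrays alone was fixed in advance. When detection on all 4 arrays was required, 8 of the 103 genes were not tested, and they count as lost there. The counts of 95 higher and 8 lower genes became 57 and 0 under median scaling, 0 and 0 with only the 4 arrays, and 169 and 64 when slide entered as a random block, where the higher share of calls went from 92.2% to 72.5%. Requiring detection on all 4 arrays left 84 and 5. Leaving out 1 array gave 58 to 108 higher genes and 4 to 10 lower. Without LPS replicate B there were 62 higher and without R848 replicate A 58. With background correction, the authors' normalized table, no detection filter, the mean of a gene's probes, every probe on its own, or a trended and robust prior, higher counts were between 92 and 103 and lower counts between 6 and 11. For the change from 1 to 2 h, 29 genes up and 2 down became 7 and 0 under median scaling and 59 and 12 with the slide block, with 12 up after background correction. Leaving out 1 array gave 13 (without R848 replicate A) to 32 up. For the change from 2 to 4 h, 86 up and 20 down became 21 and 3 under median scaling and 229 and 121 with the slide block, with 52 up after background correction. Leaving out 1 array gave 11 (without LPS replicate A or without R848 replicate A) to 30 down. The cause was not tested.

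The letters A and B were also fitted as a replicate block, which gave 101 higher and 16 lower genes. A replicate block within each time, chosen after seeing the data, gave 116 and 24, with 5 genes down from 1 to 2 h and 41 down from 2 to 4 h. The A minus B deviations of LPS and R848 at 2 h correlated at 0.773 over genes, but over 66 pairs of groups the correlation ran from -0.647 to 0.847 and passed 0.1 in 38. No label says what a letter marks. The B arrays of LPS and R848 at 2 h lay on 1 slide and the A arrays on different ones, and whether slide accounts for that correlation was not tested.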
